A study of Mus musculus with 2239 samples.

Results

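The genes described are the histone genes measured in a poly(A)-primed count table of single mouse regulatory T cells. They were taken by symbol: every row whose name starts with Hist1, Hist2, Hist3, Hist4, H2af or H3f and that held any unique molecular identifier (UMI, a tag that counts 1 captured mRNA molecule). Of 76 such rows, 62 held a UMI, among 13025 rows with any UMI of 23725 rows in all. The 55 genes with Hist symbols are called clustered genes here, since they lie in the histone gene clusters, and the 7 genes with H2af or H3f symbols are called variant genes. By histone type the clustered genes were 4 of H1, 15 of H2A, 15 of H2B, 8 of H3 and 13 of H4. Those of H2B include Hist3h2bb-ps, a processed pseudogene in GENCODE M21. The 14 rows without a UMI were 9 clustered genes, among them Hist1h1a, the testis gene Hist1h1t and 4 Hist1h3 genes, and 5 variant genes (H2afb1, H2afb2, H2afb3, H2afy2 and H2afy3).

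The cells were regulatory T cells of male B6 mice aged 7 months that carried a green fluorescent reporter of Foxp3, the transcription factor that defines this cell type. The sort took living cells with TCR beta, CD4 and the GFP reporter on. The labels named no treatment and no other allele, and did not say how many animals gave cells. Each labelled sample was 1 cell of 1 inDrops library with the tissue label spleen, and another label of the same cells names the colon as well. With 1 library there was no replicate and no test was made, and every interval below is a 95% interval that covers counting error only. Of 2239 cells, those with at least 500 UMIs were kept: 41 with a UMI of the proliferation genes Mki67, Top2a or Rrm2, called marker-positive, and 2014 without, called marker-negative. They had 500 to 4329 UMIs each, with a mean of 1049.3. Foxp3 was detected in 595 of the kept cells, a share of 29.0%, and Cd4 in 19.5%.

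Histones package DNA: pairs of H2A, H2B, H3 and H4 make the nucleosome core, and H1 binds the linker. Most histone protein is made in S phase from the clustered, replication-dependent genes. Their mRNAs classically end in a conserved stem-loop, bound by Slbp, instead of a poly(A) tail. The variant genes are transcribed in and outside S phase, carry poly(A) tails, and make replacement histones such as H3.3 and H2A.Z. Priming from poly(A), as here, captures tailed molecules and stretches of internal A.

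The stem-loop was searched for as 16 bases that start with GG, end with CC and hold T at bases 6 to 9, and whose first 6 and last 6 bases pair. It was found in the GENCODE M21 models (build GRCm38, called mm10) of 34 of the 55 clustered genes, and in 34 of the 39 whose model has a 3' UTR of at least 20 bases. Among the variants it was found in 1 of 7, H2afx, and among all 21922 protein-coding genes in 55, or 0.251%. The sites of the genes that the results turn on are given from the transcript strand, 5′ to 3′, with the stem-loop in capitals and up to 5 bases on each side.
Hist1h2ao: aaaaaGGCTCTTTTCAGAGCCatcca
Hist1h3d: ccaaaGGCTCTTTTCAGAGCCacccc
Hist3h2a: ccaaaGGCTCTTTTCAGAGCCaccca
Hist1h1c: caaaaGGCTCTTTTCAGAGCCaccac
Hist1h4m: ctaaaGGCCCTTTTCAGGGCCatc
H2afx: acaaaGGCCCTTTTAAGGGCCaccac
The models differ in what follows. Hist1h2ao (chr13:21810465-21810944) ends 31 bases after the stem-loop and Hist1h4m (chr13:21811746-21812147) ends 3 bases after it. Hist1h3d (chr13:23575763-23577011) runs on for 752 bases, Hist1h1c (chr13:23738808-23740367) for 840, Hist3h2a (chr11:58954685-58956830) for 1643 and H2afx (chr9:44334694-44336077) for 822. Of the 34 clustered models with a stem-loop, 18 had more than 100 bases after it and 16 had 100 or fewer. The letters AATAAA stood in the last 50 bases of the longest model in 11 of 55 clustered and 3 of 7 variant genes. The longest run of A in these models was 12 bases in Hist1h2ao and 15 in Hist1h2ac. It was 2 to 8 bases in the other clustered genes with at least 20 UMIs, and 12 in the variant H3f3b. Whether priming inside such runs added to a level was not tested.

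The variant genes were the larger class in these cells. They gave 7143 UMIs, or 3313 UMIs per 1000000 UMIs of the library (CPM; interval 3236 to 3391), and at least 1 UMI in 93.4% of the kept cells (92.3 to 94.5). The 55 clustered genes together gave 946 UMIs, or 438.7 CPM (411 to 467.6), in 18.2% of the cells (16.5 to 19.9). After every cell was thinned to 500 UMIs the shares were 80.1% and 11.4%. UMIs mark 1 end of a molecule, so levels were not divided by gene length.

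Among the variants, H3f3b and H3f3a, which encode the same replacement protein H3.3, had close levels. H3f3b gave 2133 UMIs in 1220 cells (989 CPM, interval 948 to 1032), and H3f3a gave 970 CPM (929 to 1013) in 1199 cells. H2afz, which encodes H2A.Z, gave 726 CPM (690 to 763) in 902 cells. H2afy, the gene of macroH2A1, gave 709 UMIs (329 CPM), H2afv, the second H2A.Z gene, 319 UMIs (147.9 CPM), and H2afj 121.04 CPM. H2afx, whose protein is phosphorylated beside DNA breaks, was the lowest with 64 UMIs (29.7 CPM, 22.9 to 37.9). The intervals of H3f3b and H3f3a overlapped, and those of H2afv and H2afj overlapped; the other neighbours in this order did not.

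Each clustered gene was low. Hist1h2ao, an H2A gene, led with 84.9 CPM (73.02 to 98.1), and Hist2h2aa2, also of H2A, followed with 65 UMIs (30.1 CPM). The H3 genes Hist1h3d and Hist2h3c1 gave 55 and 44 UMIs. The H2B genes Hist1h2bc and Hist3h2ba gave 41 and 32 UMIs, Hist3h2a of H2A gave 40, Hist1h1c of H1 gave 38 and Hist1h4m, the only H4 gene with at least 20 UMIs, gave 20. A further 7 H2A genes of the Hist1 cluster gave 39 (Hist1h2ai), 37 (Hist1h2an), 35 (Hist1h2ae), 34 (Hist1h2ag and Hist1h2ah), 33 (Hist1h2ac) and 26 UMIs (Hist1h2af). Thus 16 clustered and all 7 variant genes reached 20 UMIs and were compared one by one. The other 39 clustered genes gave 190 UMIs in all, from 1 to 18 each, and 13 of them gave 1 UMI. Of those below 20, Hist1h2ab had 18 UMIs, Hist1h2ak, Hist1h4i and Hist2h2be 15 each, Hist2h2ac 14 and Hist1h4d 10. The other 33 had 8 or fewer: Hist1h1b, Hist1h1d and Hist1h1e of H1, Hist1h2aa and Hist2h2ab of H2A, Hist1h2ba, Hist1h2bb, Hist1h2be, Hist1h2bf, Hist1h2bg, Hist1h2bj, Hist1h2bk, Hist1h2bl, Hist1h2bn, Hist1h2bq, Hist2h2bb and Hist3h2bb-ps of H2B, Hist1h3a, Hist1h3b, Hist1h3h, Hist1h3i, Hist2h3b and Hist2h3c2 of H3, and Hist1h4a, Hist1h4b, Hist1h4c, Hist1h4f, Hist1h4h, Hist1h4j, Hist1h4k, Hist1h4n, Hist2h4 and Hist4h4 of H4.

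**Figure D1:**
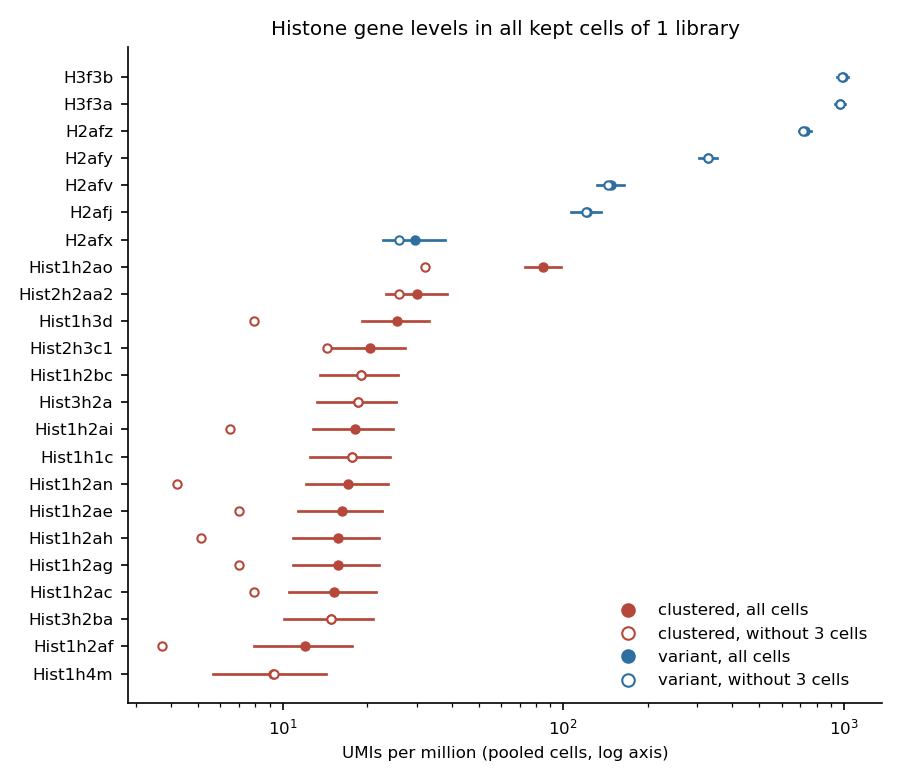
Pooled level of each histone gene with at least 20 UMIs, in CPM on a log axis, over all kept cells (filled points, with exact Poisson 95% intervals) and without the 3 cells that hold most clustered UMIs (open points). The variants span 29.7 to 989 CPM, and H2afx moves from 29.7 to 26.1 CPM without those cells, much as the clustered Hist2h2aa2 does from 30.1 to 26.1; Hist1h2ao moves from 84.9 to 32.1 CPM and Hist1h3d from 25.5 to 7.92.

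The level of the clustered genes rested on few cells. Clustered genes held 5.49% of the 3659 UMIs of the cell titled rep2a1912, 2.93% of the 2664 UMIs of rep2a744 (78 UMIs) and 2.61% of the 2799 UMIs of rep2a461 (73 UMIs). These 3 cells carried 352 of the 946 clustered UMIs, or 37.2%, but 1.23% of the variant UMIs. No other kept cell held more than 6 clustered UMIs. Thinned to 500 UMIs per cell, the variance of the clustered count over its mean was 4.52, and 1.48 without the 3 cells; for the variants it was 1.17. The marker results on clustered genes are therefore given with and without these cells, which were picked out after their values were seen.

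The 3 cells carried proliferation and T cell genes together. Cell rep2a1912 held 9 UMIs of Mki67, 1 of Top2a and 7 of Rrm2, cell rep2a744 held 5, 2 and 7, and cell rep2a461 held 0, 1 and 1. Mki67 encodes the Ki-67 protein of cycling cells, Top2a a topoisomerase of replication and mitosis, and Rrm2 a subunit of the enzyme that makes deoxynucleotides. From the 20-gene S phase list (Mcm genes, Pcna, Tk1 and others) the same 3 cells held 19, 32 and 35 UMIs, and from the G2 and M phase list 32, 12 and 6. Cell rep2a1912 was thus the richest of the 3 in G2 and M phase UMIs and in clustered UMIs, and cell rep2a461 had the most S phase UMIs. All 3 held pan-T list UMIs (8, 11 and 12) and Treg list UMIs (9, 13 and 5), and none of the B cell, myeloid, NK, erythroid or plasma cell lists. Foxp3 itself was at 0 in all 3, and Cd4 was detected in cell rep2a461 with 3 UMIs. They ranked 5, 22 and 18 among all kept cells by total UMIs; whether any was a doublet was not tested.

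The 41 marker-positive cells were 1.995% of those kept: Mki67 was detected in 14, Top2a in 19 and Rrm2 in 15. They were deeper, with a mean of 1640.5 UMIs against 1037.2 in the marker-negative cells, and 34 of the 41 rested on 1 marker UMI. Pooled, they held clustered genes at 5433 CPM (365 UMIs) against 278.1 CPM (581 UMIs) in marker-negative cells, a ratio of 19.5 (17.1 to 22.3). Variant genes stood at 4167 CPM (280 UMIs) against 3285 CPM (6863 UMIs), a ratio of 1.27 (1.12 to 1.43). Marker-positive cells held 38.6% of clustered and 3.92% of variant UMIs, with 3.12% of all UMIs. The share of cells with any clustered UMI, in contrast, was 24.4% in marker-positive cells (10 of 41, interval 12.4 to 40.3) and 18.02% in marker-negative cells (363 of 2014), and 9.76% against 11.4% after thinning to 500 UMIs.

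The class ratio of the clustered genes rested on the 3 cells. Of the 41 marker-positive cells, 31 held no clustered UMI, 7 held 1 to 3, and the remaining 3 were cells rep2a1912, rep2a744 and rep2a461. Without these, the other 38 marker-positive cells held 13 clustered UMIs, or 223.8 CPM, and the ratio to marker-negative cells was 0.805 (0.426 to 1.39). The variant ratio without them was 1.01 (0.867 to 1.16). In the 36 cells with 1 of the markers the clustered ratio to marker-negative cells was 0.670 (0.320 to 1.24) and the variant ratio 0.993 (0.850 to 1.15). In the 5 cells with 2 or 3 markers the clustered ratio was 94.3 (82.4 to 107.8) and the variant ratio 2.36 (1.93 to 2.86). The last 2 of these 5 cells were unlike the first 3: cell rep2a225, with 29 G2 and M phase UMIs and 1 S phase UMI, held 3 clustered and 14 variant UMIs, and cell rep2a1030 held 0 and 3. In the other direction, 19 marker-negative cells held 4 to 6 clustered UMIs.

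**Figure D2:**
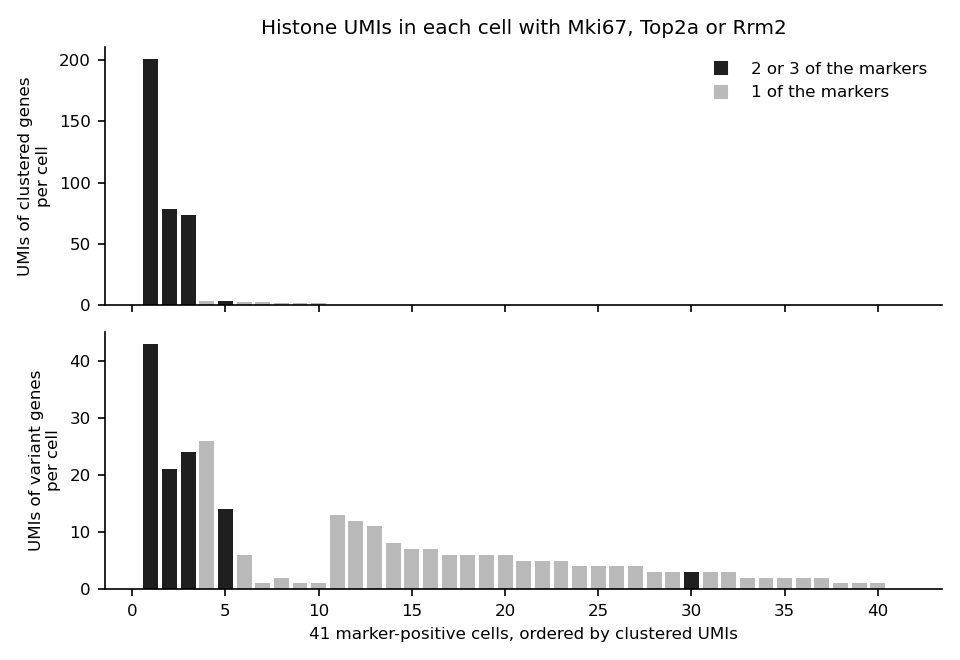
UMIs of clustered genes (top) and of variant genes (bottom) in each of the 41 marker-positive cells, 1 bar per cell, ordered by clustered UMIs; dark bars are cells with 2 or 3 of the markers, pale bars cells with 1. The first 3 bars are cells rep2a1912, with the most, rep2a744, with 78, and rep2a461, with 73 clustered UMIs, and no other cell passes 3, whereas variant UMIs run from 0 to 43 and 40 of the 41 cells hold at least 1.

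Gene by gene, 14 of the 23 measured genes were at least 2-fold higher in marker-positive cells, 12 of 16 clustered and 2 of 7 variant, and none was 2-fold lower. Of all 7803 genes with at least 20 UMIs, 12.4% were 2-fold higher and 6.23% were 2-fold lower. A 2-fold lower call was out of reach for H2afx and for every clustered gene but Hist1h2ao, so its absence there says nothing. Their marker-negative level matched 2.22 UMIs in marker-positive cells for Hist1h2ao, 1.80 for Hist2h2aa2, 1.77 for H2afx and fewer for the other clustered genes. Of the 12 clustered genes counted, 8 had fewer than 20 UMIs in marker-negative cells: they reached the minimum only through the marker-positive cells, so their place in the count was largely fixed by that minimum. Of the 7 clustered genes with at least 20 UMIs in marker-negative cells, 4 were 2-fold higher. The largest ratios were those of the H2A genes of the Hist1 cluster and of Hist1h3d. Apart from Hist1h2ao these are the same 8 genes that reached the minimum only through the marker-positive cells. Their ratios are given as values and do not rank the genes. Hist1h2ao held 61, 25 and 28 UMIs in the 3 cells, 0 in the other 38 marker-positive cells and 69 in the marker-negative cells, a ratio of 51.4 (37.8 to 70.3). Hist1h3d held 23, 7 and 8 UMIs in the 3 cells, 0 in the other marker-positive cells and 17 elsewhere, a ratio of 69.5 (38.3 to 131.3). These are the same cells in the same order for both genes, with cell rep2a1912 highest. The ratio was 96.7 (44.4 to 233.02) for Hist1h2an, 84.4 for Hist1h2af, 65.01 for Hist1h2ah, 55.5 for Hist1h2ai, 52.6 for Hist1h2ae, 39.4 for Hist1h2ag and 33.04 for Hist1h2ac, and each had between 48.5% and 75.7% of its UMIs in the 3 cells. Genes of the Hist2 cluster had lower ratios than Hist1h2ao. Hist2h3c1 had 13 of 44 UMIs in the 3 cells and a ratio of 14.5 (7.11 to 28.2), and Hist2h2aa2 had 9 of 65 there and a ratio of 4.997 (2.17 to 10.2).

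A further group of clustered genes was absent from the 3 cells. Hist1h2bc, Hist3h2a, Hist3h2ba, Hist1h1c and Hist1h4m had 0 UMIs in them, with 41, 40, 32, 38 and 20 UMIs in the rest of the library. Their UMIs were scattered: the 40 of Hist3h2a lay in 40 cells, the 20 of Hist1h4m in 20, the 41 of Hist1h2bc in 38, the 38 of Hist1h1c in 36 and the 32 of Hist3h2ba in 31. Hist1h2bc, Hist3h2a and Hist3h2ba were at 0 in all 41 marker-positive cells, where 1.32, 1.29 and 1.03 UMIs would have matched their marker-negative level, so a lower level was not detectable at this depth. Hist1h1c, which encodes the linker histone H1.2, had 4 UMIs in marker-positive cells, all outside the 3, and a ratio of 3.66 (0.943 to 10.3). Hist1h4m had 1 UMI there, a ratio of 1.64 (0.0394 to 10.3).

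Of the variants, H2afx followed the markers most. It held 7, 1 and 0 UMIs in the 3 cells, 1 in the other 38 marker-positive cells and 55 in marker-negative cells, a ratio of 5.09 (2.21 to 10.4). Without the 3 cells its ratio was 0.654 (0.0163 to 3.80). It is the variant whose models carry the stem-loop printed above. H2afv had a ratio of 2.08 (1.25 to 3.27), and 1.32 (0.653 to 2.40) without the 3 cells. H2afz held 13, 12 and 7 UMIs in the 3 cells and had a ratio of 1.85 (1.48 to 2.30); in the other 38 cells it was still 1.36 (1.02 to 1.78), and 15 of its 56 UMIs there were in cell rep2a1551, a Top2a-positive cell with 3 Foxp3 UMIs. H2afj had a ratio of 1.498 (0.764 to 2.66). H3f3b, H3f3a and H2afy had ratios of 1.04 (0.806 to 1.32), 0.934 (0.712 to 1.20) and 0.949 (0.584 to 1.46), so that a change of 2-fold lies outside each interval.

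Without the 3 cells, 4 measured clustered genes and no variant were at or above 2-fold, where 12% of all measured genes were 2-fold higher and 5.87% were 2-fold lower. Outside the 3 cells, 3 of these 4 had fewer than 20 UMIs and counted as measured only through the cells left out; Hist1h1c was the exception. The 4 rested on 1 to 4 UMIs in marker-positive cells: Hist1h1c at 4.23 (1.09 to 11.9), Hist1h2ae at 5.53 (0.606 to 24.4), Hist1h2af at 5.14 (0.114 to 39.98) and Hist1h2ac at 2.25 (0.0536 to 14.5).

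**Figure D3:**
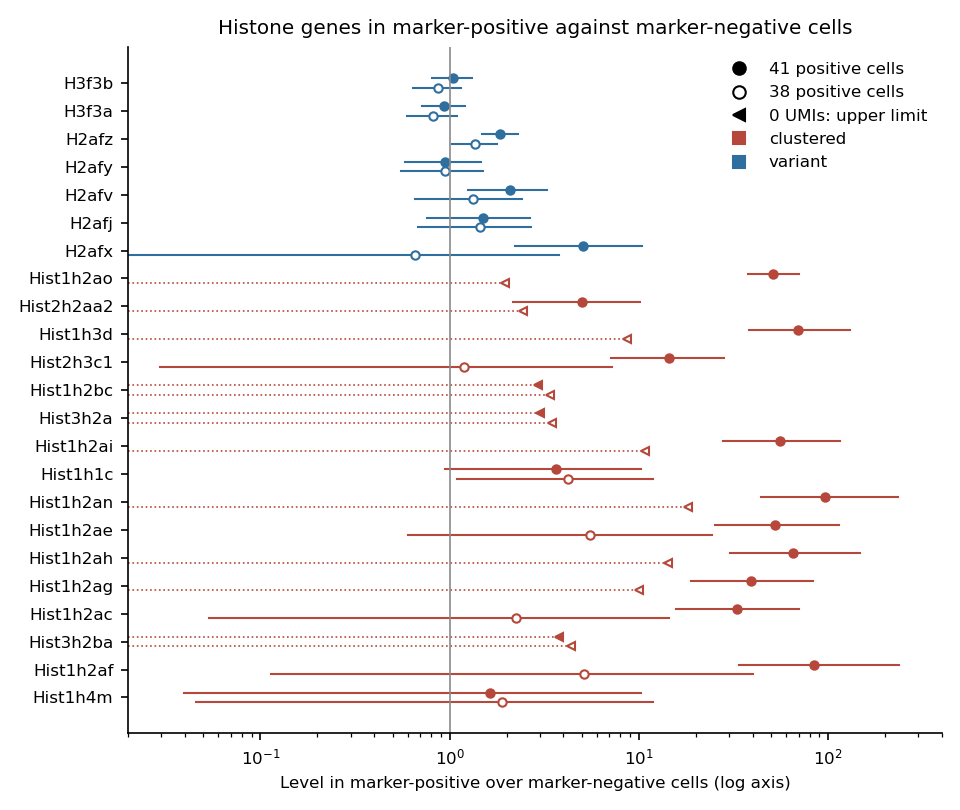
Level in marker-positive over marker-negative cells for each measured histone gene, on a log axis, with 41 marker-positive cells (filled) and with the 38 that remain without cells rep2a1912, rep2a744 and rep2a461 (open). Lines are exact 95% intervals, clipped at the left edge, and triangles mark the upper limit of genes with 0 UMIs in the marker-positive group. The filled points of Hist1 H2A genes and Hist1h3d lie between 33.04 and 96.7, while the variants other than H2afx lie between 0.934 and 2.08. Of those Hist1 genes, all but Hist1h2ao reached the minimum for measured genes only through the marker-positive cells.

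The make-up of the clustered signal differed between the 3 cells and the rest. In the 3 cells, 294 of 352 clustered UMIs, 83.5% (79.2 to 87.2), were from H2A genes and 51, 14.5% (11.0 to 18.6), from H3 genes; by the largest gene of each type in each cell, a count explained with the gene copies, these shares were 72.6% and 24.2%. H1, H2B and H4 genes gave 2, 2 and 3 UMIs. In all other kept cells the clustered UMIs were 48.5% H2A (44.4 to 52.6), 20.03% H2B, 13.1% H4, 10.1% H3 and 8.25% H1. Against all other cells, the level in the 3 cells was 241.2 times as high for H2A (204.3 to 284.7) and 200.8 times for H3 (135.5 to 296.6), but 9.64 times for H1 (1.14 to 36.7), 9.09 times for H4 (1.83 to 27.6) and 3.97 times for H2B (0.475 to 14.7). By cluster, the 3 Hist3 genes held 0 of the 352 UMIs, with an exact interval up to 1.04%, and 73 elsewhere, 12.3% (9.76 to 15.2). The 3 cells held 0.423% of all UMIs, too few for a lower Hist3 level to be seen.

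**Figure D4:**
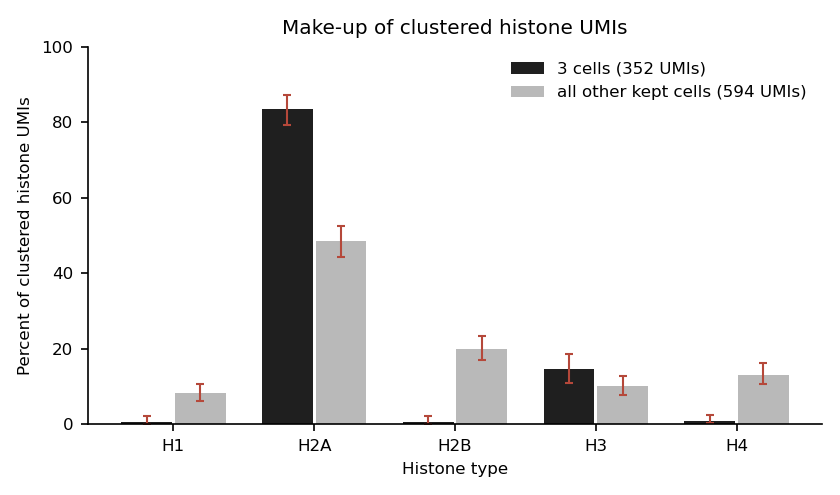
Share of clustered histone UMIs by histone type, in percent, in the 3 cells with most clustered UMIs (dark) and in all other kept cells (pale); lines are exact binomial 95% intervals. H2A and H3 make up 83.5% and 14.5% in the 3 cells, and H2B and H4, at 20.03% and 13.1% elsewhere, are below 1% there.

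The H2A and H2B UMIs of the 3 cells were also read within divergent gene pairs with overlapping promoter windows. These pairs recount part of the 294 H2A UMIs given above, in cells picked for their clustered UMIs, so they are no separate evidence. The promoter windows of RefSeq (build GRCm38.p6, 250 bases before to 50 after the start) were found for 56 of the 62 genes, and in 7 places an H2A and an H2B gene on opposite strands had windows that overlapped by 220 to 279 bases. In the 3 cells the 7 H2A genes held 212 UMIs and the 7 H2B genes 2, and in all other cells they held 130 and 17. Hist1h2ao held 62.3% of its UMIs in the 3 cells and 69 UMIs elsewhere, and its partner Hist1h2bq (chr13:21806612-21810197) held 0 and 5. Hist1h2ah held 23 and 11 and its partner Hist1h2bk 0 and 3. Hist1h2ai held 25 and 14 and its partner Hist1h2bl 1 and 2. The H2A gene was the higher of the pair in the 3 cells in 7 of 7 pairs and in the other cells in 6 of 7. Several of these genes are close copies of each other, as described below, so the pairs are not independent cases. These are the pairs in which both genes have a promoter entry. By gene coordinates 3 further H2A and H2B neighbours start from less than 300 bases apart on opposite strands, and outside the 3 cells they differed. Hist1h2ac held 17 UMIs and Hist1h2bc 41, and Hist2h2ac held 13 and Hist2h2be 15. Hist3h2a held 40 and its neighbour Hist3h2bb-ps 1, but Hist3h2bb-ps is a processed pseudogene, so that pair sets a gene against a pseudogene. In the 3 cells these H2A genes held 16, 1 and 0 UMIs and their H2B neighbours 0.

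The 200 bases before the RefSeq start of Hist1h2ao, which also lie in the window of Hist1h2bq, are shown beside those of Hist1h3d, the H3 gene that followed it most closely, and of H2afz, the variant highest in the 3 cells. Capitals mark the CCAAT box, the TATAAA box and the octamer ATTTGCAT on either strand; all 3 are on the plus strand of GRCm38.p6, at chr13:21810167-21810366, chr13:23575563-23575762 and chr3:137864287-137864486.
Hist1h2ao: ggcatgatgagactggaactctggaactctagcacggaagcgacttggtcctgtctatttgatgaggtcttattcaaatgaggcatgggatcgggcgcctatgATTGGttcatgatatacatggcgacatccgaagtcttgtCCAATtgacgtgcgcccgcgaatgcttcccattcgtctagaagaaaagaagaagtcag
Hist1h3d: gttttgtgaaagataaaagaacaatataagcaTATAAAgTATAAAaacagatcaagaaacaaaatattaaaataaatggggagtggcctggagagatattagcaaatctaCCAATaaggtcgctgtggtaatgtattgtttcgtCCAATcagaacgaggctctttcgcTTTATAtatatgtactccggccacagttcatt
H2afz: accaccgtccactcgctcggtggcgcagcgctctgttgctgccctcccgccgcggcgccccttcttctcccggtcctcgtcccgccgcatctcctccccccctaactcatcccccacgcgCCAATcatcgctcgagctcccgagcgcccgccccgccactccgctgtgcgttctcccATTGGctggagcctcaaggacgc
CCAAT was in 41 of the 50 clustered windows, against 37.4% of all 32851 promoter windows of this length: in every H1, H2A, H2B and H3 window and in 3 of 12 H4 windows. TATAAA was in 31 of 50, against 13.6%. ATTTGCAT was in 12 of 50, 7 of H2A and 5 of H2B, against 1.74%. The E2F-type letters TTTGGCGC and TTTCCCGC were in 0 and 1 of the 50 clustered windows, against 0.514% and 1.07% of all windows, and TTTGAA was in 22, against 17.9%. Of the 6 variant windows found, 5 held CCAAT, and that of H3f3b also held the TATA box and the octamer. Divergent pairs share these bases, so their counts are not independent, and a match is a string of letters and no shown site of binding.

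Many clustered genes are close copies of each other, which limits what a count for 1 gene means. Of the 40-base windows in a gene's models, a median of 51.5% recurred in another gene's models for the 55 clustered genes and 7.58% for the 7 variants. The share was 93.7% for Hist1h2ao, 90.98% for Hist1h2ah, 90.4% for Hist1h2ai and 90.1% for Hist1h4m, but 31.8% for Hist1h2bc and 9.80% for Hist1h1c. Hist2h2aa2 and Hist2h3c1 shared 100% with the overlapping model Gm20634, and the shared 31.8% of Hist3h2a lay with the overlapping gene Trim17. The submitters' notes do not say how reads that match several genes were counted or whether strand was used.

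The spread of UMIs over the copies within cells is given as counted, and no expected spread was worked out for it. Outside the 3 cells, 67 cells held at least 2 UMIs of clustered H2A genes, and in 63 of them every UMI was in a different gene. For H4 this was so in 17 of 17 cells, for H3 in 4 of 4, for H2B in 9 of 14 and for H1 in 3 of 5. Summed over the 5 types, which counts a cell once for each type it holds, UMIs were all in different genes in 96 cases and all in the same gene in 8. Of the 9 cells outside the 3 that held Hist1h2an, all 9 held another H2A gene, as did 13 of 14 for Hist1h2ai and 12 of 15 for Hist1h2ag. This was 2 of 40 for Hist3h2a, 6 of 38 for Hist1h2bc with another H2B gene, 3 of 36 for Hist1h1c with another H1 gene and 0 of 31 for Hist3h2ba. Whether 1 molecule was counted under several copies was not tested. When only the largest gene of each type was counted in each cell, the clustered sum was 612 UMIs, 64.7% of 946, and the marker ratio was 11.7 (9.71 to 13.97), or 0.808 (0.385 to 1.5) without the 3 cells. On that count the 3 cells held 87, 34 and 36 clustered UMIs, of which H2A genes made up 72.6% (64.9 to 79.4) and H3 genes 24.2% (17.7 to 31.7), with 43.7% and 12.3% in the other cells.

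Across cells a part of the clustered genes, mainly of H2A, varied together through the 3 cells and hardly elsewhere. Correlations are given as a description over cells of 1 library, which share its depth and free RNA. The mean pairwise Pearson correlation of residuals over the kept cells was 0.302 among the 16 measured clustered genes, 0.539 among the 10 of H2A, and 0.0248 among the 7 variants. The median over pairs was 0.0216 for the 16 clustered genes and 0.716 for the 10 of H2A, and Hist3h2a and Hist3h2ba correlated at -0.0158. Only 8 of the 16 had at least 20 UMIs outside the 3 cells. Without the 3 cells the mean was 0.0434 for the 16 clustered genes, 0.0831 for those of H2A and 0.0155 for the variants. Hist1h2ao and Hist1h3d correlated at 0.878, and at 0.300 without the 3 cells. The 2 genes of H3.3, H3f3a and H3f3b, correlated at 0.0527. The clustered sum correlated with the summed markers at 0.656, and at -0.00929 without the 3 cells; for the variant sum these values were 0.154 and -0.00621.

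Among 5308 other genes with at least 50 UMIs, those most like the clustered sum were Stmn1 (0.664), a microtubule regulator of dividing cells, 2810417H13Rik (0.472), Rrm1 (0.325), Pcna (0.257), Mcm6 (0.232), Cbx5 (0.214), Hmgn2 (0.194), Hmgb2 (0.194), Slbp (0.187), the stem-loop binding protein itself, and Mcm3 (0.178). Of the 56 Stmn1 UMIs, 22 were in the 3 cells. Without the 3 cells none of these genes stayed among the first 10, which were led by the myeloid genes Il1b (0.178), S100a9 (0.173) and S100a8 (0.168) and held the B cell genes Ms4a1, Cd79b and Cd79a. Most like the variant sum was Gm12657 (0.341), a processed pseudogene. It shares 76.3% of its 40-base windows with other genes, 64.5% with H3f3a, and 554 of its 590 cells (93.9%) also held H3f3a, which was found in 58.3% of all kept cells. The next were Cd79b, Cd74, H2-Ab1, Stmn1, H2-Eb1, H2-Aa, Fcer1g, Fcmr and Cd79a, at 0.192 to 0.150.

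Genes that work with histones were read from fixed lists in the same 2 groups of cells, where 12.4% of all measured genes were 2-fold higher and 6.23% lower, and 12% and 5.87% without the 3 cells. Every ratio of a single gene in this paragraph is with the 3 cells kept. Of 14 measured S phase genes, 10 were 2-fold higher in marker-positive cells, and 4 without the 3 cells; Tk1, thymidine kinase, had a ratio of 11.3 (4.35 to 26.4), Rrm1 of 8.21 and Mcm5 of 5.53. Their median log2 ratio was 1.72, where it was 0.18 over all genes with UMIs in both groups. Of 4 measured G2 and M phase genes 2 were higher, Hmgb2 at 4.19 (2.93 to 5.84) and Ube2c at 2.96 (0.337 to 12.1), while Tubb4b stood at 1.54; without the 3 cells 1 was higher, Hmgb2. Of 13 genes that process histone mRNA, 5 were 2-fold higher and 1 lower, and none in either direction without the 3 cells. Slbp led with 4.03 (2.13 to 7.06), followed by Lsm10, a part of the U7 particle that cuts histone mRNA, at 2.49 (0.652 to 6.78), whereas Lsm11, its partner, stood at 0.464 (0.0116 to 2.68). Of 18 histone chaperone genes, 6 were higher and 1 lower, and 4 and 2 without the 3 cells. With the 3 cells kept, Asf1b, which hands H3 and H4 to new DNA, stood at 9.82 (3.21 to 25.6), Hjurp at 2.997 (1.25 to 6.18) and Daxx, an H3.3 chaperone, at 0.382 (0.0458 to 1.40). Of the histones outside the rule, Cenpa, the H3 of centromeres, stood at 2.75 (1.28 to 5.25) and H1f0 at 1.17 (0.138 to 4.45).

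The S phase list does not use the 3 markers; its bins were set after the data were seen. Of 26 kept cells with 5 or more S phase list UMIs, 17 held no clustered UMI, and the 26 together stood at 5139 CPM of clustered genes (interval 4622 to 5697) and 4612 CPM of variant genes. This bin holds the 3 cells that were chosen for their clustered UMIs, and leaving them out caps what the other bins can show at 6 UMIs a cell. Outside the 3 cells, clustered genes stood at 294.5 CPM in cells with no S phase list UMI, 242.9 in those with 1, 273.4 in those with 2, 383.3 in 65 cells with 3 or 4, and 147.2 (67.3 to 279.4) in 23 cells with 5 or more. No cell in the last bin held more than 4 clustered UMIs, although its median depth was 2688 UMIs. H2afz stood at 641, 778, 784, 723 and 1145 CPM over the same bins, and H3f3a at 990, 942, 905, 931 and 1096.

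Marker-negative cells were also split by fixed effector and resting Treg lists into effector cells (146061 UMIs in all) and 1107 resting cells (1180565 UMIs). Clustered genes stood at 390 CPM in effector and 258.4 in resting cells, a ratio of 1.51 (1.12 to 2.01), and variants at 4012 and 3132 CPM, a ratio of 1.28 (1.17 to 1.40). The H2A.Z genes H2afv and H2afz had ratios of 2.02 (1.38 to 2.89) and 1.61 (1.34 to 1.91), and H2afx, on 5 and 25 UMIs, one of 1.62 (0.483 to 4.30). H3f3b stood at 1.25 (1.06 to 1.47), H3f3a at 1.10 (0.919 to 1.31) and H2afy at 0.887 (0.631 to 1.22). H2afv and Hist3h2a, at 2.02 (0.593 to 5.55), were the measured members at 2-fold, where 10.4% of 6481 genes were 2-fold higher and 7.31% were 2-fold lower. The other members measured here were H2afj at 1.38, Hist1h2bc at 1.28, Hist1h2ao at 1.06, Hist2h2aa2 at 0.735 and Hist3h2ba at 0.703.

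Some sorted cells carried markers of other blood cells, and histone levels moved with them. At least 3 UMIs of the B cell list were found in 94 cells and of the myeloid list in 37, outside cells rep2a1912, rep2a744 and rep2a461, with 11 cells in both groups and median depths of 908.5 and 1085 UMIs against 974.5 in the kept cells with neither, those 3 left out,. Pan-T list UMIs were found in 12 of the 94 (12.8%) and in 10 of the 37, against 92.9% of the cells with neither. H3f3a stood at 2646 CPM (2338 to 2984) in the cells with B cell list UMIs and 858.2 CPM (818 to 900) in those with neither, a ratio of 3.08 (2.70 to 3.51). H2afz went the other way, with 308.4 against 731 CPM, a ratio of 0.422 (0.286 to 0.602). H3f3b differed less, with a ratio of 1.27 (1.05 to 1.52), and H2afj had a ratio of 2.23 (1.41 to 3.38). Of 7690 genes measured in these cells, 12% were 2-fold higher and 11.3% were 2-fold lower. Clustered genes stood at 586.96 CPM (447 to 757) against 251.5 CPM, a ratio of 2.33 (1.75 to 3.06), and their H2A genes at 3.27 (2.27 to 4.61).

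Leaving out the 11 shared cells, the H3f3a ratio was 3.32 (2.89 to 3.81) in 83 cells with B cell list UMIs alone and 3.06 (2.42 to 3.83) in 26 with myeloid list UMIs alone, and the clustered ratios were 2.59 (1.92 to 3.44) and 3.61 (2.38 to 5.29).

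In the cells with myeloid list UMIs, H3f3a stood at 2286 CPM, a ratio of 2.66 (2.18 to 3.23), and H2afz at 762 CPM, a ratio of 1.04 (0.731 to 1.44). Clustered genes had a ratio of 2.70 (1.84 to 3.84). Here H2B genes led, with a ratio of 4.03 (1.88 to 7.72), and Hist1h2bc, at 0 in every marker-positive cell, held 7 UMIs in these 37 cells and 31 in those with neither list, a ratio of 9.37 (3.48 to 21.7). Hist1h1c held 5 and 32 UMIs, a ratio of 6.49 (1.97 to 16.8). Of 7642 genes measured in them, 17.3% were 2-fold higher and 8.79% were 2-fold lower. Of the 41 marker-positive cells, 4 were among those with B cell list UMIs and 3 among those with myeloid list UMIs, and leaving all these out gave a clustered marker ratio of 24.1 and a variant ratio of 1.35. The plasma cell list moved with the marker-positive group: 500 of its UMIs were there, 495 of them in 2 cells, or 7442 CPM against 94.8 CPM in marker-negative cells, and 8606 CPM without the 3 cells, which held none. Those 2 cells held 0 clustered and 5 variant UMIs of 3326 in all. Without the cells with 3 or more plasma cell list UMIs the clustered ratio was 20.5 and the variant ratio 1.31.

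**Figure D5:**
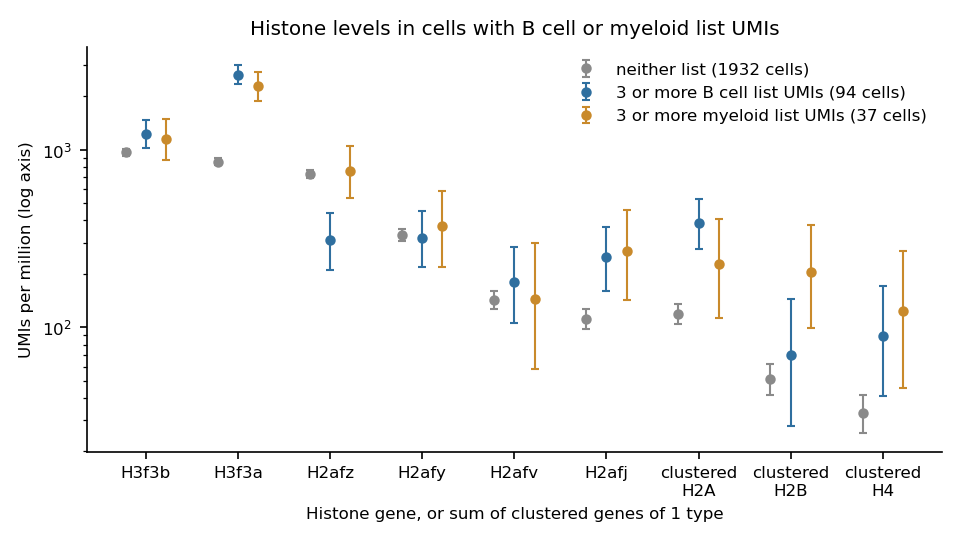
Pooled level, in CPM on a log axis, of 6 variant genes and of the summed clustered H2A, H2B and H4 genes in cells with neither list (grey), with 3 or more B cell list UMIs (blue) and with 3 or more myeloid list UMIs (orange; 11 cells are in both); lines are exact Poisson 95% intervals. H3f3a is higher in both marked groups, at 2646 and 2286 against 858.2 CPM, and H2afz is lower in the B cell list group, at 308.4 against 731 CPM.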

How the data were processed

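Live Foxp3 reporter-positive CD4 T cells were measured by inDrops with oligo-dT priming, per the labels' protocols. Per the submitters' processing notes TopHat2, SAMtools and build mm10 were used; versions, annotation and counting settings are not given in the sources used here. Whole-number UMI counts per gene and cell were deposited with no normalization, and all 2239 columns were mapped to samples by title. The members and gene lists were chosen with earlier results of these data known.

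Counts of cells with at least 500 UMIs were pooled by group and scaled to CPM, with totals that leave out the 3 markers in comparisons by marker. Intervals at 95% are exact Poisson for levels, Clopper-Pearson for shares and exact conditional for ratios. Genes with 20 UMIs were compared, and 2-fold was the size called higher or lower, with a count of 0 set to 3 UMIs; no ratio is printed for it. Cell correlations used Pearson residuals (overdispersion 100). Named were each member with at least 20 UMIs, the other members by their counts, the 10 genes most like each class sum, and up to 3 genes of each list with the largest ratios; others, cells and bins among them, were chosen after their values were seen. The stem-loop pattern had first been written 1 base short and was corrected to 16 bases. Sequence features came from GENCODE M21 and promoters from RefSeq, matched by Entrez ID. Python with numpy 2.4.6, scipy 1.17.1 and pandas 2.3.3 was used, and the ratio step was tested on simulated data. Doublets were not removed. PCR and amplification copies are collapsed by UMIs, so intervals cover the counting of molecules only. For sums of clustered genes they take each UMI as a separate molecule, which was not tested. They would be too narrow if 1 molecule was counted under several genes.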

Additional observations from a re-analysis of the deposited data

How the results depend on the processing

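The labels give 1 library, so a mean of 1049.3 UMIs per cell set what could be seen, and no replicate could be left out. No paired analysis was possible because there was 1 group of cells. The clustered ratio of marker-positive to marker-negative cells (19.5) was 0.805 without the 3 cells with most clustered UMIs, an alternative chosen after seeing the data, 0.819 without the 5 cells with most, and 0.647 without the 2% of cells with most UMIs, which include those 3. It was 26.7 with a minimum of 1000 UMIs, 66.5 with at least 2 marker UMIs, 34.8, 36.9 and 50.4 with Mki67, Top2a or Rrm2 alone, 23.1 over 4 depth strata, 24.1 without cells with B cell or myeloid list UMIs, 15.2 without the member with most UMIs, and 11.7 with the largest gene of each type per cell, also chosen after seeing the data. The variant ratio (1.27) was 2.14 with at least 2 marker UMIs, 1.70 and 1.58 with Top2a or Rrm2 alone, 1.01 without the 3 or the 5 cells and 0.941 without the 2% deepest cells. The 14 members at 2-fold were 4, 5 and 2 without the 3 cells, the 5 cells and the 2% deepest cells. Of all measured genes, 12.4% were 2-fold higher in the main setting and 12% without the 3 cells. This share was not taken without the 5 cells or the 2% deepest cells, so those counts cannot be compared with it. The members at 2-fold were 5 of 10 with at least 50 UMIs and 27 of 62 with no minimum. The share over all genes was not taken at these 2 minimums, so the counts cannot be compared with it. With no minimum, 1 UMI in marker-positive cells could be enough, as for Hist1h2bj with 1 against 2 UMIs. The ratio of H2afx was 0.654 and 0.653 without the 3 and the 5 cells. The clustered level (438.7 CPM) was 505 with a minimum of 1000 UMIs, 661 without ribosomal protein genes in the total, 277.6 without the 2% deepest cells, 271.9 and 276.6 without the 5 and the 3 cells, 468.4 with H2afx counted in and 353.9 without Hist1h2ao; the variant level (3313 CPM) was 4994 without ribosomal protein genes, 3199 without cells with B cell or myeloid list UMIs and 2323 without H3f3b. The share of cells with a clustered UMI was 20.2% with H2afx and 11.4% after thinning, and with a variant UMI 91.97% and 96.5% at minimums of 300 and 1000 UMIs, 85.6% without H3f3b and 80.1% after thinning. The mean correlation of clustered genes was 0.0434 without the 3 cells. The cause of these shifts was not tested. Under the alternatives, cells with plasma cell list UMIs left out among them (chosen after seeing the data), 51 ratios of single members moved outside the interval of the main value or changed direction, 15 of them with at least 2 marker UMIs and 12 with Rrm2 alone, and 68 had no value because the member had 0 UMIs in marker-positive cells.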
